A study of Mus musculus with 6 samples.

Results

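The genes described here load the replicative helicase onto origins of DNA replication. They were chosen by symbol, as 10 of the 20893 genes in the table: Mcm2, Mcm3, Mcm4, Mcm5, Mcm6, Mcm7, Mcm10, Cdc6, Cdt1 and Orc1. All 10 were found and all 10 passed the filter on low values. RNA was sequenced from mouse hearts of strain C57BL6/J, 3 libraries labelled R1KO, a germline knockout of the RNA-binding protein gene Rbpms, and 3 libraries labelled Wildtype, which the design text calls littermate controls. The question addressed is what loss of Rbpms does to heart RNA. The stage is embryonic by the series title and neonatal by the design text, and no age is given. Whether each library stems from an animal of its own is not stated, so part of the spread behind each p-value may be technical. Each group held libraries of both sexes, so neither came from a single animal.

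Replication licensing is the step that prepares each origin to fire once in a cell cycle. The origin recognition complex, with Orc1 as its largest subunit, and the ATPase Cdc6 sit on the DNA and receive the ring-shaped helicase made of Mcm2 to Mcm7, which the chaperone Cdt1 delivers. Mcm10 is not part of the ring and acts later, when the loaded helicase is switched on. Most of these genes are transcribed under E2F transcription factors as cells leave G1, and cardiomyocytes still divide before birth and shortly after it, then largely stop.

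The promoters are shown because most of these genes hold an 8-letter E2F site there, which few promoters do. Promoter windows of 300 bases, from 250 before to 50 after the annotated start (RefSeq, GRCm38.p6), were at hand for 9 of the 10 genes, with 2 windows for Mcm7. An E2F site was counted where TTTCCCGC, TTTCGCGC, TTTGCCGC or TTTGGCGC stood on either strand, and overlapping matches were counted separately. It was found in 7 of the 9 genes, Mcm3, Mcm5, Mcm6, Mcm7, Cdc6, Cdt1 and Orc1, while 2.26% of all 32851 windows, or 2.6% of 27025 genes, held one. The shares of all windows and genes were not matched to the members for expression or for content of G and C. Mcm2 and Mcm10 had no match to these letters in their windows, nor had 1 of the 2 windows of Mcm7. Below are 195 bases of 6 windows, from 165 before to 30 after the start, read 5′ to 3′ on the strand of the gene with E2F sites in capitals.
Mcm6 (chr1:128359676-128359870, reverse strand): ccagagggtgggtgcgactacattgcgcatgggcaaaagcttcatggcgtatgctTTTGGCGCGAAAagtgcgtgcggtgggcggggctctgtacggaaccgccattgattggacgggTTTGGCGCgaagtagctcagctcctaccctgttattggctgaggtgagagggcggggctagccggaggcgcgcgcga
Mcm5 (chr8:75109344-75109538, forward strand): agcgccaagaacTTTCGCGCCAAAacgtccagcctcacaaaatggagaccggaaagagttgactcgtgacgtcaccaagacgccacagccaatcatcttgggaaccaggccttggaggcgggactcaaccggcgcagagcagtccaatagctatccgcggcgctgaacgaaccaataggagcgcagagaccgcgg
Mcm3 (chr1:20820283-20820477, reverse strand): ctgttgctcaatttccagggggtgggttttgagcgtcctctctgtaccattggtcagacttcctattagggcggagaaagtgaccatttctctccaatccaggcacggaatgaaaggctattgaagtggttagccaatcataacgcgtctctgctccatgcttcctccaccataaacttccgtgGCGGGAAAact
Mcm7 (chr5:138171854-138172048, reverse strand): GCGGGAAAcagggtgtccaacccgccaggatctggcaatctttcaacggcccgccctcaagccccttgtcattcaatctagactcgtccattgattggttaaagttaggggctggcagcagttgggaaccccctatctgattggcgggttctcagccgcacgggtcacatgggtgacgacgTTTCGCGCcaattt
Cdc6 (chr11:98907986-98908180, forward strand): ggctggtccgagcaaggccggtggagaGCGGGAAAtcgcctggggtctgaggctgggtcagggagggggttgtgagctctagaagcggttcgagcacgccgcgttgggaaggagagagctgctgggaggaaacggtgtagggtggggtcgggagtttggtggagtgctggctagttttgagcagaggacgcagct
Orc1 (chr4:108579289-108579483, forward strand): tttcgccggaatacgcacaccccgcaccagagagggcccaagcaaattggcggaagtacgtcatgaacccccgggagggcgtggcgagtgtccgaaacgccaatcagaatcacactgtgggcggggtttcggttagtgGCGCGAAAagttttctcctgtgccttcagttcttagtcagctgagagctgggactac
Mcm6 had 3 matches, at 110, 106 and 47 bases before the start, and the first 2 overlapped. Mcm5 had 2 overlapping matches, at 153 and 149 bases before the start. The match of Cdt1, and the other match of Mcm3, lay 33 and 39 bases after the start, outside the stretch printed. The CCAAT box, read as CCAAT on either strand, was in 7 of the 9 genes and in 41.1% of all genes. TTTGAA, the core of the cell cycle homology region, was in 1 of the 9, Mcm2, and in 20.2% of all genes. A match describes letters in these windows, and binding was not measured.

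Values are read numbers that the authors scaled by a factor for each library and rounded, called normalised reads here, and each log2 fold change was taken after adding a pseudocount of 1. The libraries held 4163230 to 5805674 recovered reads. Rbpms itself held 375, 340 and 507 normalised reads in the knockout libraries, against 1182, 1176 and 1317 in the wildtype libraries (log2 -1.61, SE 0.14, limma, adjusted p = 0.0124). That call was lost without knockout replicate 1 (0.0523) and without wildtype replicates 1, 2 and 3 (0.0868, 0.0967 and 0.133). Its paralog Rbpms2 stood at log2 -0.08 (adjusted p = 0.627). Knockout replicate 3 and wildtype replicate 1 were female by Xist (1763 and 1770 normalised reads) and Ddx3y (2 and 4), and the other 4 libraries were male. Knockout replicate 3 stood apart in 2 marker lists. The 8 epicardial markers summed to 1736, 1868 and 1003 normalised reads in knockout replicates 1, 2 and 3, against 1705 to 1908 in wildtype libraries. In knockout replicate 3, Upk3b, Upk1b, Msln, Muc16, Aldh1a2 and Krt19 lay below every wildtype library. There Tbx18, at 286, lay within its wildtype range of 271 to 322, and Wt1, at 245, lay above its range of 191 to 225. The 9 erythroid markers summed to 818, 909 and 2190 in knockout replicates 1, 2 and 3, against 746 to 958 in wildtype libraries. Markers of cardiomyocytes (10 genes) summed to 27208 to 30354 in knockout and 27960 to 30576 in wildtype libraries, those of fibroblasts (8) to 10378 to 12510 and 11006 to 12856, and those of leukocytes (7) to 1026 to 1149 and 1006 to 1091. Endothelial markers (8) summed to 8191 to 8626 in knockout and 7585 to 7845 in wildtype libraries, and smooth muscle markers (8) to 5531 to 5802 and 5878 to 6325. By limma 0 of the 56 tested markers changed, 13 had an unadjusted p under 0.05, which 16.4% of all genes had, and 0 of the 58 markers in the table was at 0 in any library. The part of these markers in the results that follow was not tested.

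Of the 6 ring subunits, Mcm2 to Mcm6 were lowest in knockout replicates 1 and 3 and within the wildtype range in knockout replicate 2, and Mcm7 was below the wildtype range in all 3 knockout libraries. Mcm2, whose tail binds histones, held 231, 382 and 153 normalised reads in knockout replicates 1, 2 and 3, against 406, 349 and 432 in wildtype replicates 1, 2 and 3. Its mean was 255 ± 116 in knockout and 396 ± 42.5 in wildtype libraries (SD, n = 3 libraries each, log2 -0.72, SE 0.32, adjusted p = 0.325). Knockout replicate 2 lay inside the wildtype range, and the other knockout libraries lay below every wildtype library. Mcm5, which closes the ring against Mcm2, held 154, 289 and 120 in knockout libraries, against 301, 260 and 337 in wildtype libraries (log2 -0.76, SE 0.32, adjusted p = 0.304). Mcm3, the partner of Mcm5 in the ring, held 206, 330 and 166, against 362, 295 and 342 (log2 -0.56, SE 0.24, adjusted p = 0.305). Both genes repeated the order of Mcm2, with knockout replicate 3 lowest and knockout replicate 2 within the wildtype range. In bulk hearts, fewer cells of a type and less RNA per cell cannot be told apart.

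Mcm4, Mcm6 and Mcm7 form the other side of the ring and showed smaller differences. Mcm4 held 230, 322 and 170 normalised reads in knockout libraries, against 324, 310 and 315 in wildtype libraries (log2 -0.44, SE 0.21, adjusted p = 0.34). Its wildtype values were the closest together of the 10 genes, with a coefficient of variation of 2.24%, against 31.8% in the knockout. Mcm6 held 292, 454 and 301, against 515, 450 and 485 (log2 -0.5, SE 0.16, adjusted p = 0.193). Here knockout replicates 1 and 3 were alike, and knockout replicate 2 stayed within the wildtype range. Mcm7 held 320, 344 and 332, against 415, 370 and 440 (log2 -0.29, SE 0.08, adjusted p = 0.131). It was the 1 gene of the 10 whose groups did not overlap, it had the smallest difference and the smallest p (unadjusted p = 0.00606), and its knockout libraries lay within 1.08-fold of each other. In Mcm2 the highest knockout library was 2.5-fold the lowest.

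**Figure D1:**
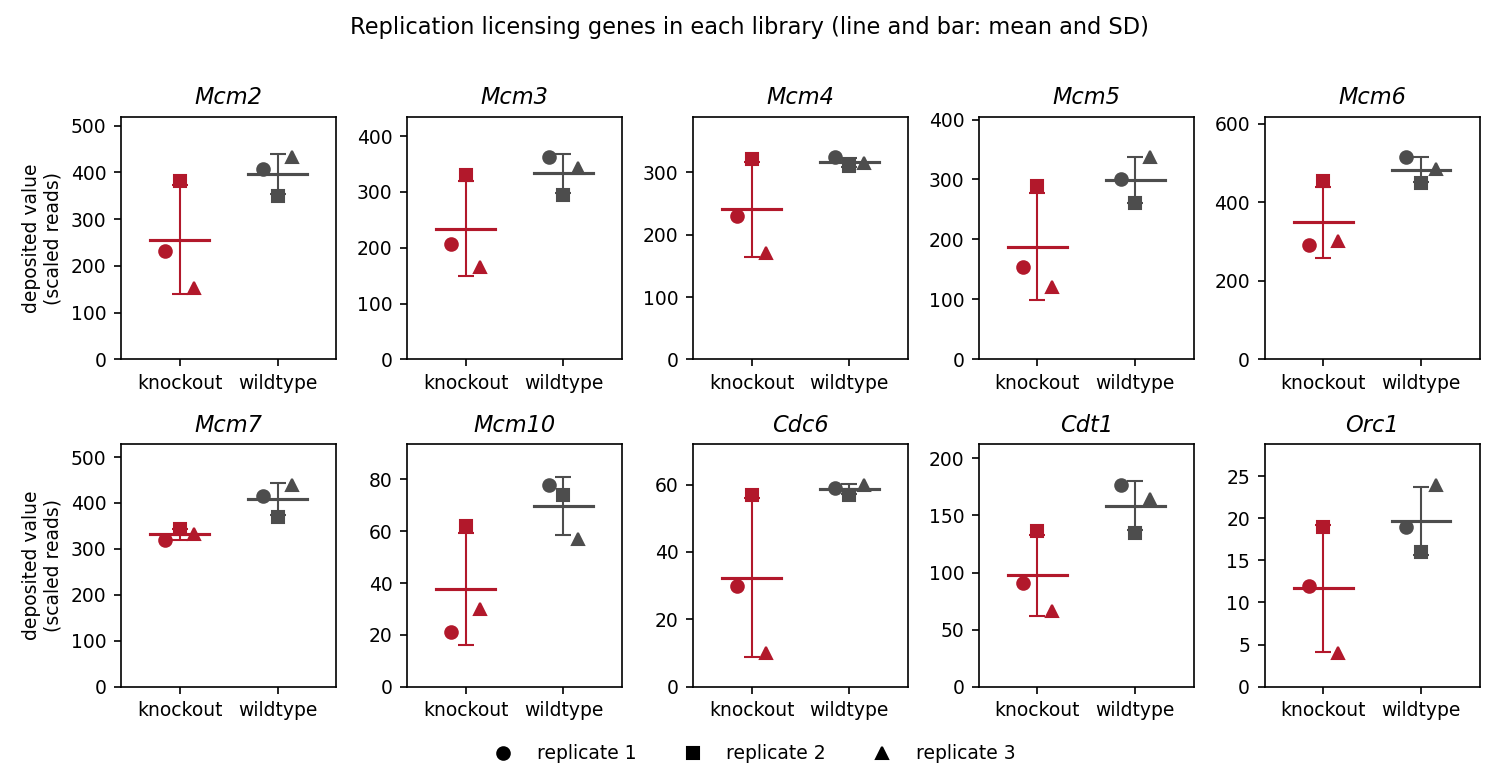
Normalised reads of the 10 licensing genes in each library, with 3 knockout libraries left of 3 wildtype libraries in each panel, the vertical axis starting at 0, and the mean and SD as line and bar. Squares, replicate 2, sit at the top of the knockout group in all 10 panels, and the knockout values of Mcm7 lie within 320 to 344.

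The genes that load or start the ring were expressed at lower levels per kb than its subunits, and Cdc6, Mcm10 and Orc1 had the most negative fold changes of the 10. Cdc6 held 30, 57 and 10 normalised reads in knockout libraries, against 59, 57 and 60 in wildtype libraries. Its mean was 32.3 ± 23.6 in knockout and 58.7 ± 1.53 in wildtype libraries (SD, n = 3 libraries each, log2 -1.14, SE 0.55, adjusted p = 0.351). Wildtype libraries were nearly equal, whereas the knockout libraries spread 5.7-fold. The lowest of them rested on 12 recovered reads, with an exact Poisson 95% interval of 6.2 to 21.0 that covers counting error only. Orc1 held 12, 19 and 4, against 19, 16 and 24 (log2 -0.9, SE 0.48, adjusted p = 0.389). It was the least abundant of the 10, and its lowest library rested on 5 recovered reads (interval 1.62 to 11.7).

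Cdt1, the loader that geminin blocks and that is destroyed once DNA synthesis starts, held 91, 136 and 66 normalised reads in knockout libraries, against 177, 135 and 164 in wildtype libraries. Its mean was 97.7 ± 35.5 in knockout and 159 ± 21.5 in wildtype libraries (SD, n = 3 libraries each, log2 -0.75, SE 0.25, adjusted p = 0.186). Knockout replicate 2 overlapped the wildtype libraries by 1 normalised read. Mcm10 held 21, 62 and 30, against 78, 74 and 57 (log2 -1.0, SE 0.36, adjusted p = 0.217). Here knockout replicate 1 was the lowest, as in Mcm6 and Mcm7, while knockout replicate 3 was the lowest in the other 7 genes.

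Across the 10 genes every log2 fold change was below 0, from -1.14 in Cdc6 to -0.29 in Mcm7, with a median of -0.74. Of all 14974 genes tested, 50.2% had a fold change below 0, and their median was -0.0009. By limma 0 of the 10 passed an adjusted p of 0.05 (0.131 to 0.389), and 0.942% of all genes did, 141 in number, with 76 (0.508%) higher and 65 (0.434%) lower in the knockout. That split was 52 higher and 78 lower when libraries were scaled to the upper quartile, and 42 and 58 when scaled to their totals. An unadjusted p under 0.05 with a lower level was reached by 5 of the 10, Mcm7, Cdt1, Mcm6, Mcm10 and Mcm5, and by 7.86% of all genes. That count of 5 was 10 without knockout replicate 2, 2 without knockout replicate 1 or 3, and 1 without wildtype replicate 1. With voom 9 of the 10 were lower at that p and 0 passed adjustment, on the deposited values (9.52% of all genes were lower at it) and on the recovered reads (8.33%). A log2 fold change of -0.4 or less was seen in 9 of the 10 and in 8.45% of all genes. Groups that did not overlap, with the knockout lower, were seen in 1 of the 10 and in 10.9% of all genes, which is no more than the background.

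The 3 knockout libraries did not share 1 level. Against the wildtype mean, the median log2 deviation of the 10 genes was -0.75, -0.04 and -1.21 in knockout replicates 1, 2 and 3, against 0.04, -0.15 and 0.05 in wildtype replicates 1, 2 and 3. Knockout replicates 1 and 3 both lay below every wildtype library in 10 of 10 genes, where 17.3% of all genes did. Knockout replicate 2 was the highest knockout library in 10 of 10 (33.2% of all genes) and within the wildtype range in 9 of 10 (43.4%), Mcm7 being the exception. These descriptions were chosen after the values were seen. The coefficient of variation was larger in the knockout for 9 of 10 genes, with a median of 41.1% in knockout and 10.5% in wildtype libraries. The share of all genes with a larger coefficient in the knockout was not computed.

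Without knockout replicate 2, 7 of the 10 genes fell (limma, adjusted p = 0.00633 to 0.028) and 1.63% of all genes fell. The 7 were Mcm2, Mcm3, Mcm4, Mcm5, Mcm6, Mcm10 and Cdt1, and the median log2 fold change of the 10 was -1.04. That fit leaves out the knockout library nearest to wildtype and is a measure of that library's weight. Without knockout replicate 3 the median was -0.41, and without knockout replicate 1 it was -0.67, with 0 of 10 passing in each case. Leaving out each wildtype replicate in turn also gave 0 of 10. Between the male libraries, 2 knockout and 2 wildtype, the median log2 difference was -0.37 and all 10 genes were lower in the knockout. Between the female libraries, 1 of each, it was -1.33, and again all 10 were lower. With a term for sex, 0 of 10 passed adjustment and 8 were lower at an unadjusted p under 0.05, where 8.51% of all genes were.

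**Figure D2:**
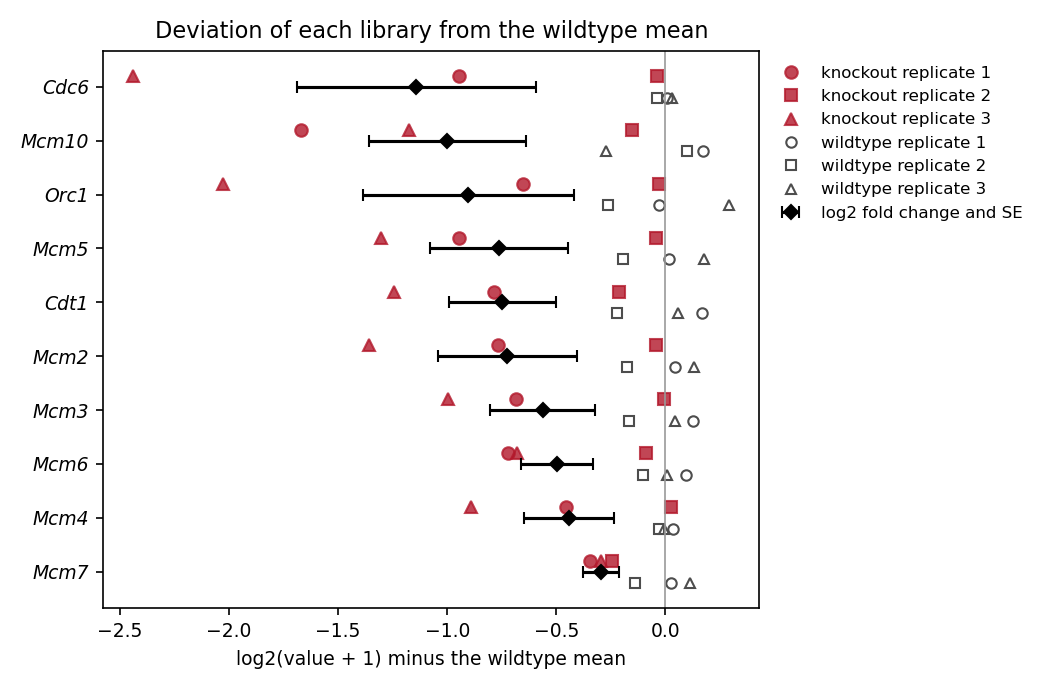
Log2(value + 1) of each library minus the wildtype mean for the 10 genes, knockout libraries as filled and wildtype libraries as open symbols, with the fitted log2 fold change and its SE as black diamonds and bars. Knockout replicate 2 sits within the wildtype spread in every row but Mcm7, and knockout replicate 3 reaches -2.44 in Cdc6.

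Per kb of principal transcript (GENCODE vM21), the ring subunits were the most abundant of the 10 in both groups. Mcm6 led with 120 ± 31.3 normalised reads per kb in knockout and 166 ± 11.2 in wildtype libraries (SD, n = 3 libraries each). Mcm7 followed with 112 ± 4.05 in knockout and 138 ± 12 in wildtype hearts. In wildtype hearts the ranges of Mcm6 and Mcm7 did not overlap, whereas from Mcm7 down through Mcm2 (117 ± 12.6), Mcm3 (110 ± 11.3), Mcm5 (88.5 ± 11.4) and Mcm4 (88.1 ± 1.98) each overlapped the next. Cdt1 lay below them at 44.6 ± 16.2 in knockout and 72.5 ± 9.82 in wildtype hearts. Cdc6, Mcm10 and Orc1 came last, at 12.6 ± 9.22, 7.74 ± 4.43 and 3.87 ± 2.49 in knockout and 22.9 ± 0.6, 14.3 ± 2.29 and 6.53 ± 1.34 in wildtype hearts. In knockout hearts every neighbour in the order overlapped the next except Cdt1 and Cdc6. Per kb of all annotated exons, Mcm2 moved to the sixth place in both groups, so places inside the ring depend on the length used.

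The balance inside the ring also differed between libraries. The most abundant of the 6 subunits was 2.37, 1.83 and 3.16 times the least abundant per kb in knockout replicates 1, 2 and 3, against 1.99, 2.01 and 1.9 times in wildtype replicates 1, 2 and 3. The ratio of knockout to wildtype mean ran from 0.627 in Mcm5 to 0.813 in Mcm7 within the ring, and from 0.541 in Mcm10 to 0.616 in Cdt1 among the other 4 genes.

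**Figure D3:**
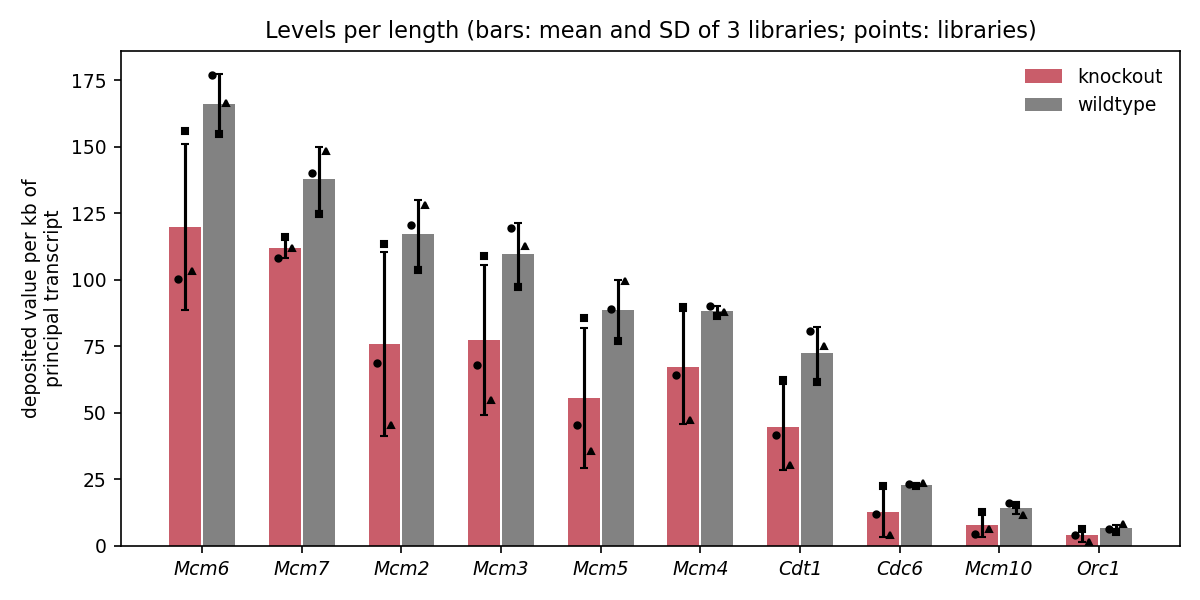
Normalised reads per kb of principal transcript, knockout bars left of wildtype bars, with the mean, the SD over 3 libraries and each library as a point, on an axis that starts at 0. The 6 ring subunits stand above Cdt1, and Cdc6, Mcm10 and Orc1 reach at most 23.4 in any library.

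Of the 10 genes, 3 have a neighbour on the other strand whose start lies within 1000 bases, in the coordinates of the deposited table (mm39). Mcm4 (chromosome 16, 15441761 to 15455264, reverse strand) starts 466 bases from Prkdc, the catalytic subunit of DNA-dependent protein kinase. Prkdc held 203, 161 and 124 normalised reads in knockout libraries, against 164, 198 and 149 in wildtype libraries (log2 -0.08, SE 0.18, adjusted p = 0.855). Orc1 (chromosome 4, 108436620 to 108472030, forward strand) starts 87 bases from the splicing factor gene Prpf38a, which held 310, 261 and 292, against 286, 270 and 265 (log2 0.07, SE 0.09, adjusted p = 0.749). Mcm7 (chromosome 5, 138162845 to 138170684, reverse strand) overlaps the start of Ap4m1, an adaptor protein subunit, which held 400, 406 and 449, against 397, 421 and 407 (log2 0.03, SE 0.07, adjusted p = 0.856). In these 3 neighbours the groups overlapped, and no difference passed the test. The difference between a licensing gene and its neighbour was not tested. The nearest genes to Cdt1, Mcm5, Cdc6 and Mcm3, lying farther off, were Aprt, Hmox1, Wipf2 and Paqr8, at log2 0.16, -0.04, -0.02 and -0.15 (adjusted p = 0.423, 0.904, 0.932 and 0.761). Those of Mcm2, Mcm6 and Mcm10 (Gm36189, Lct and Ucma) were too low to test. Mcm7 also overlaps Cops6, on the other strand, and Orc1 a long noncoding RNA, Gm12743. The sources used here do not give the strand setting of the read counting, so reads in shared stretches may count for either gene.

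**Figure D4:**
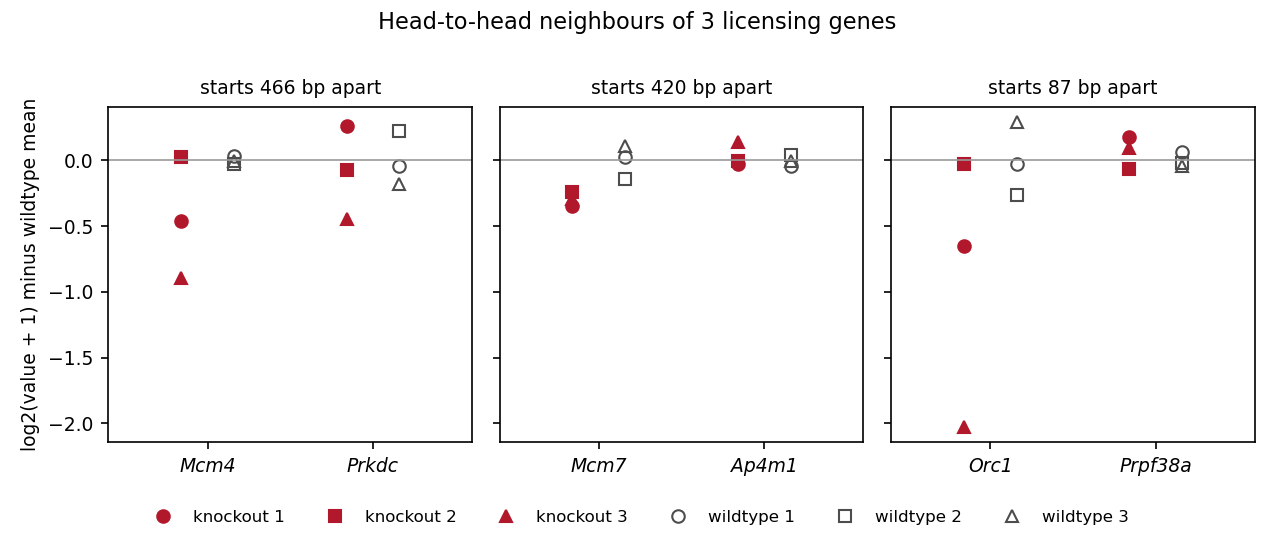
Log2(value + 1) minus the wildtype mean for Mcm4, Mcm7 and Orc1 beside their head-to-head neighbours Prkdc, Ap4m1 and Prpf38a, knockout libraries (filled) left of wildtype libraries (open). The neighbours scatter around 0, while knockout replicates 1 and 3 lie below it in all 3 licensing genes.

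Of 10 genes for the other origin recognition subunits and MCM partners, 0 changed by limma, and their median log2 fold change was -0.04, with 2 lower and 0 higher at an unadjusted p under 0.05. At that p, 7.86% of all genes were lower. Orc2, Orc3, Orc4 and Orc5 had log2 fold changes of -0.002, -0.03, 0.07 and -0.06. Mcm8, a helicase of recombination, held 52, 49 and 63 normalised reads in knockout libraries, against 79, 84 and 72 in wildtype libraries (log2 -0.52, SE 0.17, adjusted p = 0.175). Orc6 and the MCM binding protein Mcmbp stood at -0.26 and -0.13 (adjusted p = 0.299 and 0.424).

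Of 9 genes in the list of licensing inhibitors and protein destruction, 0 changed, with a median of 0.02. At an unadjusted p under 0.05, 3 were lower and 1 higher. At that p, 7.86% of all genes were lower, and 1279 of all 14974 were higher. Geminin, Gmnn, the inhibitor of Cdt1, held 169, 145 and 196 normalised reads in knockout libraries, against 178, 144 and 176 in wildtype libraries (log2 0.03, SE 0.14, adjusted p = 0.937). Its groups overlapped, and those of Dtl and Skp2, which direct Cdt1 to destruction, did not. In 10.9% of all genes the groups did not overlap, with the knockout lower. Dtl held 61, 96 and 48, against 139, 124 and 112 (log2 -0.92, SE 0.24, adjusted p = 0.11), and Skp2 50, 57 and 45, against 78, 75 and 87 (log2 -0.65, SE 0.17, adjusted p = 0.104). Pcna, the sliding clamp, stood at -0.34 (adjusted p = 0.218). Without knockout replicate 2, Dtl fell (limma, adjusted p = 0.0125), where 1.63% of all genes fell. That fit leaves out the knockout library highest in Dtl and measures its weight. Without knockout replicate 1, Dtl did not pass (adjusted p = 0.273).

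In the list of origin firing, 0 of 16 genes changed by limma, while all 16 fold changes were below 0, with a median of -0.48 and 7 at an unadjusted p under 0.05. Of all genes, 50.2% had a fold change below 0, and 7.86% were lower at an unadjusted p under 0.05. The kinase Cdk2 held 502, 555 and 483 normalised reads in knockout libraries, against 636, 619 and 625 in wildtype libraries (log2 -0.29, SE 0.07, adjusted p = 0.0925). Cyclin E1, Ccne1, and the helicase cofactor Cdc45 stood at log2 -0.64 and -0.58 (adjusted p = 0.135 and 0.155). Of the E2F factors and pocket proteins, 1 of 13 fell by limma and 0 rose, where 0.434% of all genes fell. Their median log2 fold change was -0.12, and 8 of 13 were below 0. At an unadjusted p under 0.05, 3 were lower and 1 higher, where 1177 and 1279 of all 14974 genes were. The 1 higher was Rb1 (log2 0.24, adjusted p = 0.271). The 1 that fell was E2f8, a repressor that E2F itself induces. E2f8 held 60, 99 and 97 normalised reads in knockout libraries, against 183, 172 and 168 in wildtype libraries (log2 -1.06, SE 0.19, adjusted p = 0.0472). Its call was lost in 7 of 18 alternatives, among them those without knockout replicate 1 (0.0873), without wildtype replicates 1, 2 and 3 (0.238, 0.145 and 0.223), with a mean value of at least 50 (0.0536) and with plain moderation (0.119). The activator E2f1 held 89, 119 and 74, against 182, 148 and 147 (log2 -0.77, SE 0.18, adjusted p = 0.0875), and the pocket protein Rbl1 stood at -0.75 (adjusted p = 0.0961). Among 5 tested inhibitors of cyclin-dependent kinases, 1 rose by limma and 0 fell, where 0.508% of all genes rose. At an unadjusted p under 0.05, 3 were higher and 1 lower, where 1279 and 1177 of all 14974 genes were. The 1 that rose was Cdkn1a, which encodes p21. Cdkn1a held 677, 571 and 807 normalised reads in knockout libraries, against 270, 322 and 293 in wildtype libraries (log2 1.2, SE 0.13, adjusted p = 0.0124). Its groups did not overlap, and the share of all genes without overlap and higher in the knockout was not computed. Its call was lost without knockout replicate 1 (0.0671), without wildtype replicates 1, 2 and 3 (0.103, 0.0967 and 0.143) and with plain moderation (0.0713). Cdkn2c and Cdkn1c stood at -0.58 and 0.24 (adjusted p = 0.149 and 0.222).

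Genes of G2 and mitosis did not follow the licensing genes from library to library. Their list median against the wildtype mean was -0.89, -0.6 and 0.43 in knockout replicates 1, 2 and 3, and knockout replicate 3 was the highest knockout library in 15 of 15 genes. The share of all genes with knockout replicate 3 highest was not computed. The licensing genes were at their lowest in knockout replicate 3, with a median of -1.21. By limma 0 of the 15 mitotic genes changed, and 2 were lower at an unadjusted p under 0.05, where 7.86% of all genes were. Without knockout replicate 3, 7 fell, where 2.6% of all genes did. That fit leaves out the knockout library highest in these genes and measures its weight. Top2a held 214, 282 and 511 normalised reads in knockout libraries, against 554, 427 and 539 in wildtype libraries (log2 -0.68, SE 0.32, adjusted p = 0.35). Aurkb, a kinase of chromosome segregation, and the transcription factor Foxm1 stood at -0.67 and -0.54 (adjusted p = 0.214 and 0.294).

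**Figure D5:**
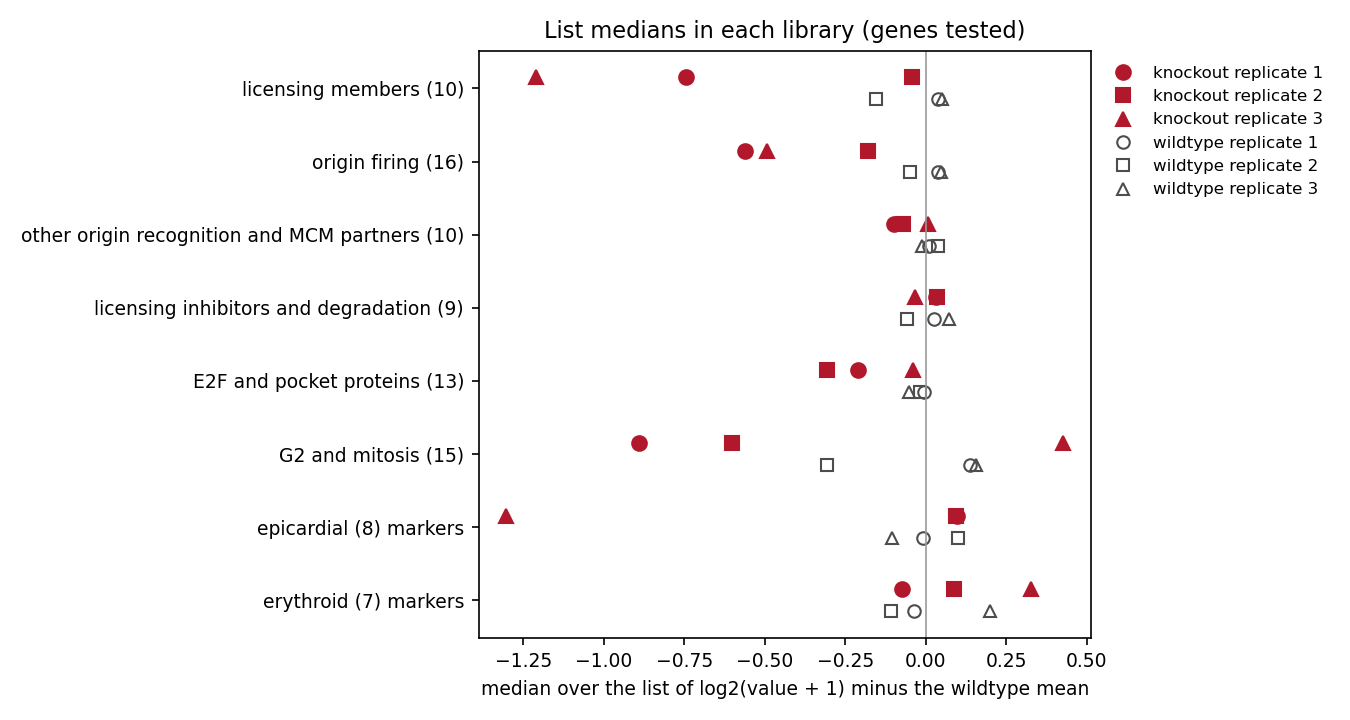
Median over each gene list of log2(value + 1) minus the wildtype mean, per library, knockout as filled and wildtype as open symbols, with the number of genes tested in parentheses. In knockout replicate 3 (filled triangles) the licensing genes stand at -1.21, the epicardial markers at -1.3 and the genes of G2 and mitosis at 0.43.

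Among 11710 genes with a mean of at least 50 normalised reads, likeness to the mean profile of the 10 genes over 6 libraries was measured as the root mean square difference of log2 deviations. Mcm2, Cdt1, Mcm5 and Mcm3 were among the 5 nearest, at 0.06 to 0.09, and are part of the profile they were compared with. The 5 nearest other genes were Aldh1a2 (0.08), Rcor2 (0.1), Ccdc69 (0.12), Tubb4a (0.12) and Aplnr (0.13). Aldh1a2, a retinoic acid synthesis enzyme and 1 of the 8 epicardial markers, held 198, 297 and 132 normalised reads in knockout libraries, against 309, 317 and 352 in wildtype libraries. Aplnr, the apelin receptor of endothelium, held 618, 796 and 417, against 874, 825 and 992. Mcm6, Mcm10 and Mcm7 lay at 0.21, 0.37 and 0.38, ranks 73, 862 and 1075, so Mcm7 was the least like the profile of the 8 genes abundant enough to be ranked.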

How the data were processed

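The 6 stranded mRNA libraries from heart were read single-end, per the labels' protocols. The submitters' processing notes name the build mm39 and, with no role or order, DESeq2 1.36.0, featureCounts 2.0.4, STAR 2.7.11a, Trimmomatic 0.39 and Picard 3.0.0. Each deposited value is a score, a read number that the authors multiplied by a factor for each library and rounded, as the spacing of low values shows. The factors, 0.8524 to 1.1798, were estimated from values under 400 and gave the recovered reads, 4163230 to 5805674 per library. At this depth the members rested on 5 to 494 reads in a library.

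The 14974 genes that reached 10 in 3 or more libraries were tested by limma 3.58.1 (statmod 1.5.0, R 4.3.3) after log2 transformation with pseudocount 1. Moderation was robust and followed the intensity trend, with no covariate and Benjamini-Hochberg adjustment at 0.05 over all tested genes. The members, the 6 other pathway lists, the 7 marker lists and the tests were chosen with earlier results of these data known. Named were all members and, in each other pathway list, the 3 genes with the smallest p, with Rbpms, neighbours and the 5 most like genes; Gmnn and Orc2 to Orc5 were added after their values were seen. Code was tested on simulated data. Alternatives covered scaling, filter, pseudocount, moderation, voom, the replicate number as a block, sex and each library left out.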

Additional observations from a re-analysis of the deposited data

Results flagged for a closer look

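The genes of G2 and mitosis moved in opposite directions in the libraries of the 2 sexes. The list median was higher by 0.29 on the log2 scale in the female knockout library than in the female wildtype library (1 library each), whereas the 2 male knockout libraries averaged -0.67 against the 2 male wildtype libraries. The difference between the sexes was not tested, and with 1 female library a group it cannot be told apart from a difference of that library. None of the 10 licensing genes showed opposite directions in this way.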

How the results depend on the processing

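Over 18 alternatives, 12 in processing and 6 that leave out 1 library, 178 values of the 10 licensing genes were computed, and 0 changed direction. Of them 171 kept their side of the threshold and 7 passed it, the 7 without knockout replicate 2. In the 12 the count of changed members was 0, the median log2 fold change ran from -0.77 to -0.64, and adjusted p from 0.1 to 0.479. Scaling moved the median of all genes by at most 0.04. Requiring a mean of at least 50 removed Cdc6 and Orc1. Leaving out 1 library gave 0 to 7 changed members, with medians from -1.04 to -0.41, and 0 to 727 changed genes. With wildtype replicate 2 or 3 left out limma gave 0 changed genes, but 2176 and 1852 at an unadjusted p under 0.05. The log2 fold change of Rbpms was -1.77 to -1.49 in these 6 fits. The count of changed genes, 141, was 218 with no filter, 78 with a mean of at least 50, 24 with plain moderation, 73 and 82 with voom on deposited values and recovered reads, 23 with a replicate block and 223 when sex was a covariate. The cause was not tested. With that block 0 members passed, 6 were lower at an unadjusted p under 0.05 (7.01% of all genes were) and E2f8 was lost (adjusted p = 0.119). Same-numbered libraries did not deviate together (r = -0.17, -0.11 and -0.13), and 0 libraries correlated best with their own number. The count tests planned on recovered reads were not run. The recovered reads are estimates, made from values that the authors had scaled and rounded. Voom on these reads, added after the data were seen, took the place of the count tests. Depth limits Orc1 and Cdc6 most.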
